A study of Mus musculus with 230 samples.

Results

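The noncoding and ribosomal RNA-like loci described here are 9 named rows of the deposited count table, out of 53278 genes: CT010467.1, Lars2, Mir6236, Rn7s1, Rn7s2, Rn7sk, Rmrp, Malat1 and Neat1. They were chosen by name with their levels in these libraries known, and CT010467.1, Lars2, Mir6236 and Rn7s2 also with their difference between injured and intact neurons known. For those 4 the levels and differences are given as descriptions with no test, and likewise for Rn7s1, a near-identical copy of Rn7s2. Whether CT010467.1, Lars2 and Mir6236, here called rRNA-like, resemble ribosomal RNA in sequence was not checked. RNA was measured in sensory neurons of mouse dorsal root ganglia from C57BL/6 X CAST/Ei crosses, either intact or after injury of the sciatic nerve, in 69 single cells and in 18 libraries of low input. Each condition had 3 low-input libraries at each of 1, 8 and 12 months, where the oldest group is called 1 year in part of its labels. The cells formed 4 groups, with 18 intact and 21 injured cells at 1 month and 8 intact and 22 injured cells at 1 year. Neurons were picked by hand from dissociated L4 and L5 ganglia. For the cells, the labels say that the nucleus was removed for bisulfite sequencing and the remaining cytoplasm went into SMART-seq2, which primes on poly(A) tails. The labels name no animal, so the p-values measure only the spread between these libraries, which may be technical.

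Ribosomal RNA makes up most of the RNA of a cell, and copies and fragments of its sequence are scattered through the mouse genome under names of other genes. The 7SL RNA (Rn7s1, Rn7s2) is the scaffold of the signal recognition particle, which directs secreted and membrane proteins to the endoplasmic reticulum. The 7SK RNA (Rn7sk) holds the elongation factor P-TEFb in an inactive particle, and Rmrp is the RNA subunit of RNase MRP, which cuts the ribosomal RNA precursor. The 7SL, 7SK and RNase MRP RNAs are made by RNA polymerase III. Malat1 and Neat1 are long noncoding RNAs that stay in the nucleus: Malat1 is found at nuclear speckles, and Neat1 builds paraspeckles. Lars2 encodes the mitochondrial leucyl-tRNA synthetase and is the only protein-coding gene among the 9.

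Of the 9 members, Mir6236 is the one whose own transcript sequence was at hand, and it is shown because its composition is unusual for a microRNA. Its mature sequence in RefSeq (GRCm38.p6, plus strand, chr9:110281353-110281371), with the seed at bases 2 to 8 in capitals, reads as follows.
Mir6236 mature: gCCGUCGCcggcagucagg
G and C made up 78.9% of its 19 bases, against a median of 52.2% over the 1679 mature mouse sequences in the same table, of which 1.19% were as rich or richer. None of the others shared its seed, a count of 0. The counted feature was the 123 bp hairpin gene on chromosome 9 (110281287 to 110281409, plus strand), so the values below belong to the locus and not to the mature microRNA.

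The annotation and the counting set what each row could hold, since reads were counted without strand. CT010467.1 (GRCm38, chromosome 17, 39846353 to 39848827, minus strand) has 2466 bp of exon, of which only 644 bp (26.1%) are not shared with Gm42418 and AY036118, and both of these were at 0 counts everywhere. Rmrp (chromosome 4, 43492788 to 43493058, minus strand) lies wholly within the exons of AL732506.1 and in part within Ccdc107, leaving 0 bp of its own. Rn7s1 and Rn7s2 (both on chromosome 12, 69159295 to 69159594 and 69361182 to 69361481, on opposite strands) keep 153 of 300 bp each. They are near-identical copies, so their counts are uncertain and are not independent of each other. Rn7sk (chromosome 9, 78175303 to 78175633), Lars2 (chromosome 9, 123366927 to 123462666) and Mir6236 share no exon base with another gene. Malat1 (chromosome 19, 5795690 to 5802672) keeps 86.2% and Neat1 (chromosome 19, 5824708 to 5845478) 98.2% of their exon bases.

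The low-input libraries held 7531967 to 19443627 gene counts, but only 770328 to 11587094 of these lay outside CT010467.1, and the members together took 29.7% to 95.8%. ERCC spike-in RNA, added by the authors, was 1.20% to 11.6% of all counts in injured and 2.00% to 26.9% in intact libraries. The number of neurons per library is not given, so fewer cells and less RNA per cell cannot be told apart. The intact 12-month replicate 2 stood apart from the rest, with 770328 counts outside CT010467.1, 10778 genes detected and 40.5% of its outside counts from mitochondrial genes, against 1.19% as the lowest share among all libraries and a median of 2.36%. None of the 12 neuron markers was at 0 throughout, and their summed level was 21000 to 32470 CPM (counts scaled to the usual fixed depth, here with CT010467.1 left out of the library's total) in injured and 17210 to 32530 in intact libraries. The 8 satellite glia markers summed to 289.9 to 5048 in injured and 114.2 to 1564 in intact libraries, and the 8 fibroblast and vessel markers to 47.3 to 158 and 0 to 55.8. The 7 Schwann cell markers summed to 773.6 to 1371 in injured and 279.1 to 2311 in intact libraries, with a median log2 difference of -1.47 over the 5 tested, and the 9 immune cell markers to 5.69 to 36.7 and 0.749 to 23.4, with a median of 1.14 over the 3 tested. Of these lists, 2 of 12 neuron, 1 of 8 satellite glia, 0 of 5 Schwann cell, 0 of 3 immune and 1 of 4 fibroblast and vessel markers tested were called by edgeR (1 Schwann cell and 1 immune marker at an unadjusted p below 0.05; DESeq2 called 0 and 1 of these). In the same contrast, averaged over ages, edgeR called 878 of all 14212 genes tested (6.18%). An unadjusted p below 0.05 was found for 2880 genes, and DESeq2 called 1548. These shares belong beside every list count of that contrast, here and below, and no list was tested against them. By edgeR's adjusted p, averaged over ages, the neuron markers Tubb3 and Rbfox3 differed by 0.99 (p = 0.0236) and -1.16 (p = 0.04205) on the log2 scale, the glial Atp1b2 by 4.67 (p = 0.04333) and the collagen gene Col1a2 by 3.93 (p = 0.02541). Without intact 12-month replicate 2 Rbfox3 was at -0.82 (p = 0.05969). The part of these cell types in the differences below was not tested.

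Only 4 of these 9 loci were abundant in the low-input libraries. CPM per kb of exon, the length-scaled measure used to compare genes, had a median over the 18 libraries of 334000 for CT010467.1, 754 for Mir6236, 635 for Lars2 and 78.5 for Malat1. The same median was 8.27 for Rn7sk, 5.84 for Rn7s2 and 5.08 for Rn7s1, so by counts the 3 small structured RNAs were more than an order of magnitude below Lars2. How well the libraries capture these products of RNA polymerase III was not tested. Their counts are therefore no measure of their amount in the cell. CT010467.1 had the most counts of any gene in all 18 libraries, and Lars2 ranked between 2 and 16. Malat1 ranked from 20 to 9894, the widest range of the 4. Neat1 had 78 counts in all, spread over 9 of the 18 libraries, and Rmrp had 0. A count of 0 allows Rmrp up to 0.0148 CPM among the 202827941 low-input gene counts, CT010467.1 included, and up to 0.00668 CPM among the 449152087 counts in cells (3 counts as the limit, counting error only). Since none of the bases of Rmrp could be assigned to it alone, its 0 says nothing of the RNA.

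CT010467.1 took a smaller share of the counts in injured than in intact libraries at each age. At 1 month its share was 35.7%, 36.1% and 39.8% in injured and 45.1%, 40.4% and 45.2% in intact replicates 1, 2 and 3. At 8 months it was 59.7%, 45.4% and 41.6% in injured and 65.7%, 68.2% and 67.1% in intact libraries. At 12 months it was 33.3%, 39.04% and 29.4% in injured and 64.2%, 93.8% and 80.9% in intact libraries. The 2 conditions did not overlap at any age, with the narrowest gap at 1 month, between 39.8% and 40.4%. Group means moved from 43.6% ± 2.74 at 1 month to 67% ± 1.25 and 79.6% ± 14.9 (SD, n = 3) in intact libraries, and were 37.2% ± 2.28, 48.9% ± 9.56 and 33.9% ± 4.85 in injured ones. The intact groups of the 3 ages did not overlap between 1 month and the later ages, while the range at 12 months covered that at 8 months. The log2 difference between injured and intact was -2.23 ± 0.49 (SE) averaged over the 3 ages and -5.26 ± 0.96 at 12 months. Without the intact 12-month replicate 2 the difference at 12 months was -2.53 ± 0.33. A gene was called at an edgeR adjusted p below 0.05. Of 31 tested genes of ribosomal RNA transcription and processing 0 were called in the averaged contrast, beside 878 of all 14212 genes (6.18%). Of the 31, 8 had an unadjusted p below 0.05 by edgeR and 1 was called by DESeq2, with a median log2 difference of 0.00. At 12 months 2 of the 31 were called, both higher in injured libraries, beside 425 of all 14212 genes, of which 311 were higher.

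**Figure D1:**
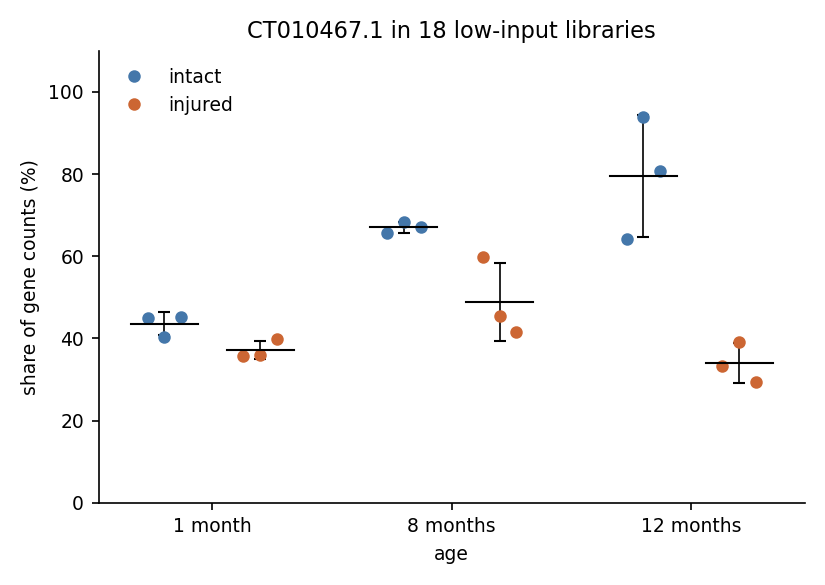
Share of all gene counts taken by CT010467.1 (%, y axis) in each low-input library, by age (x axis) and condition. Points are libraries, lines are group means and bars are ± 1 SD (n = 3). Injured libraries lie below intact ones at each age, and the intact 12-month group spreads from 64.2% to 93.8%.

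Lars2 and Mir6236 moved with CT010467.1 at 12 months but less plainly before that. For all members other than CT010467.1, levels are in CPM with CT010467.1 left out of the total. Lars2 at 12 months stood at 4918, 3226 and 3114 in injured and at 16730, 315500 and 19330 in intact libraries. The groups did not overlap in CPM, though they did per ERCC count. The highest intact value in CPM came from replicate 2, the library that stood apart. At 1 month the injured values were 14720, 5294 and 9694 and the intact ones 19520, 3854 and 8168, which overlapped. At 8 months the intact replicate 2 reached 33120 while its 2 companions, at 6192 and 7122, lay within or near the injured range of 5351 to 6965. Lars2 thus had 1 high intact library at each age (replicate 1 or 2). The log2 difference of Lars2 was -2.73 ± 0.70 averaged over ages and -6.67 ± 1.46 at 12 months, and without intact 12-month replicate 2 it was -1.26 and -2.28. None of the 16 tested mitochondrial aminoacyl-tRNA synthetases, the enzymes that load tRNA for mitochondrial translation, was called by edgeR in the averaged contrast (count 0, with 2 at an unadjusted p below 0.05 and 0 called by DESeq2), and their median log2 difference was -0.18 beside 0.03 over all genes tested.

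Mir6236 at 12 months was 81.9, 46.98 and 33.9 in injured and 263, 3562 and 398 in intact libraries. At 8 months it was 135.7, 64.4 and 48.01 in injured and 144, 373 and 160 in intact libraries. Neither pair of groups overlapped in CPM, though at 8 months the gap was only from 135.7 to 144. As a share of all gene counts the 8-month groups overlapped. Mir6236 was then at 0.00547%, 0.00352% and 0.00280% in injured and 0.00494%, 0.0119% and 0.00529% in intact libraries. Per ERCC count the groups overlapped at both 8 and 12 months. At 1 month the injured libraries were at 104, 33.9 and 67.5 and the intact ones at 53.8, 37.3 and 120, with full overlap. The log2 difference of Mir6236 was -2.63 ± 0.63 averaged over ages and -6.34 ± 1.29 at 12 months, and -2.61 at 12 months without intact replicate 2. Relative to CT010467.1, Lars2 had 3.23 to 26.5 and Mir6236 0.0550 to 0.234 counts per 1000 counts of CT010467.1 over the 18 libraries. Injured and intact medians of these ratios were 7.79 and 9.34 for Lars2, and 0.0813 and 0.0942 for Mir6236.

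**Figure D2:**
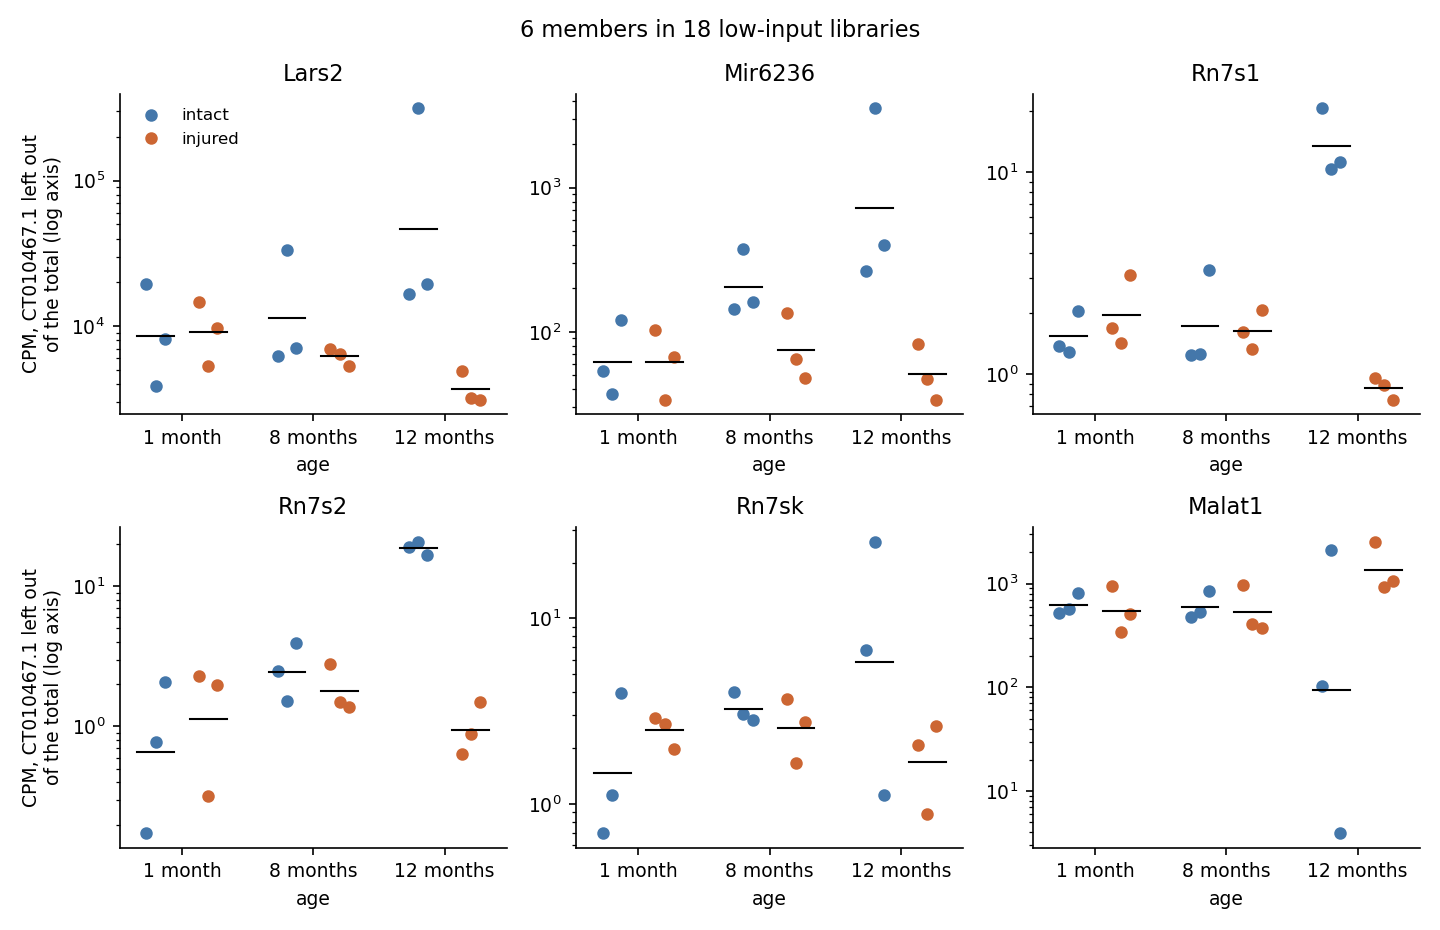
CPM with CT010467.1 left out of the total (y axis, log scale) of 6 members in each low-input library, by age (x axis) and condition. Points are libraries and lines are geometric means (n = 3). Rn7s1 and Rn7s2 separate the conditions at 12 months only, and Malat1 spreads from 3.91 to 2124 in intact 12-month libraries.

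Over the 18 libraries the ranks of CT010467.1, Lars2 and Mir6236 were correlated. Spearman's rho was 0.831 between CT010467.1 (as a share) and Mir6236, 0.761 between Lars2 and Mir6236, and 0.672 between CT010467.1 and Lars2. Within the 9 intact and the 9 injured libraries, rho was 0.95 and 0.367 between CT010467.1 and Mir6236. It was 0.667 and 0.733 between Lars2 and Mir6236, and 0.583 and 0.483 between CT010467.1 and Lars2. After group means were taken out of the log2 levels, Pearson's correlation, which is not rank-based, was 0.855 between Lars2 and Mir6236. It was 0.677 between CT010467.1 and Mir6236 and 0.503 between CT010467.1 and Lars2. These are descriptions over libraries that share depth and composition. The genes closest to the members by Spearman's rho over the 18 libraries were Gm24270 for CT010467.1 (0.853), Gm15564 for Lars2 (0.868) and Mir6236 (0.864), and Gm23935 for Mir6236 (0.860). Gm15564 is a noncoding RNA gene on chromosome 16 (35966752 to 35983230), far from any of the 3. Of the 18 further loci listed as rRNA-like, 15 were in the table and 4 had enough counts to be tested. These were Gm15564, Gm26917 and the mitochondrial ribosomal RNAs mt-Rnr1 and mt-Rnr2. In the averaged contrast 1 of the 4, Gm15564, fell by 2.97 ± 0.76 on the log2 scale (edgeR adjusted p = 0.02914), beside 878 of 14212 genes called. By edgeR 3 of the 4 had an unadjusted p below 0.05, and DESeq2 called 0. Gm15564 stood at 610, 12440 and 717 CPM in intact and 165, 66.5 and 78.7 in injured 12-month libraries, and without intact 12-month replicate 2, the highest, it was at -1.47 ± 0.46 (edgeR adjusted p = 0.06113). At 12 months 3 of the 4 were called lower, beside 425 of 14212 genes. Without intact 12-month replicate 2, 0 were lower and 1, Gm26917, was higher, by 7.03 ± 1.22 on the log2 scale. In that library mt-Rnr2 stood at 306700 CPM, against 28950 and 23700 in intact 12-month replicates 1 and 3. The median of the 4 was -1.38 averaged over ages and -4.58 at 12 months, beside 0.03 and 0.08 over all genes.

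Rn7s1 and Rn7s2, the 7SL copies, had few counts, with the highest in intact 12-month replicates 1 and 3. The raw counts of Rn7s1 at 12 months were 6, 6 and 4 in injured and 99, 8 and 20 in intact replicates. Those of Rn7s2 were 4, 6 and 8 in injured and 91, 16 and 30 in intact replicates. As levels, Rn7s1 stood at 0.954, 0.881 and 0.748 CPM in injured and at 20.8, 10.4 and 11.2 in intact libraries. The groups did not overlap in CPM, but the 8 counts of intact replicate 2 stand high there only against its 770328 counts outside CT010467.1. As a share of all gene counts Rn7s1 was 6.36e-05%, 5.37e-05% and 5.28e-05% in injured and 0.000744%, 6.41e-05% and 0.000214% in intact libraries, so intact replicate 2 was level with injured replicate 1, and per ERCC count the groups overlapped. At 1 and 8 months the levels of Rn7s1 were 1.33 to 3.09 in injured and 1.25 to 3.28 in intact libraries and overlapped. The log2 difference of Rn7s1 was -4.63 ± 0.75 at 12 months and -1.49 ± 0.39 averaged over ages, or -4.21 and -1.35 without intact 12-month replicate 2. The log2 difference of Rn7s2 was -5.07 ± 0.99 at 12 months and -1.65 ± 0.51 averaged over ages. For the protein partners of 7SL, of 9 tested signal recognition particle proteins 0 were called by edgeR (1 at an unadjusted p below 0.05, 0 by DESeq2), with a median log2 difference of -0.13 averaged over ages and -0.25 at 12 months.

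Rn7sk showed a pattern carried by few counts. It had 32, 20 and 2 counts in intact and 13, 6 and 14 in injured libraries at 12 months, or 6.72, 25.96 and 1.12 against 2.07, 0.881 and 2.62 CPM. The intact group held both the highest and 1 of the lowest values, so the groups overlapped. At 1 month injured libraries were at 2.92, 2.71 and 1.99 and intact ones at 0.694, 1.12 and 3.98. The log2 difference of Rn7sk was -1.29 ± 0.62 averaged over ages (edgeR adjusted p = 0.253) and -3.98 ± 1.18 at 12 months (edgeR adjusted p = 0.07772). Without intact 12-month replicate 2 the latter was -1.17 (edgeR adjusted p = 0.4415), while without replicate 1 or 3 of that group it was -4.53 (edgeR adjusted p = 0.04414) or -4.62 (edgeR adjusted p = 0.02748). Of 7 tested proteins of the 7SK particle 0 were called by edgeR (1 at an unadjusted p below 0.05, 1 by DESeq2), with a median log2 difference of -0.29. Of 11 tested proteins of RNase MRP and RNase P 0 were called by edgeR (1 unadjusted, 1 by DESeq2), with a median of -0.07.

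Malat1 had group means near 600 CPM at 1 and 8 months, with single libraries from 338 to 976, and spread further at 12 months. At 1 month it was 950, 338 and 512 in injured and 519, 565 and 814 in intact libraries. At 8 months it was 976, 409 and 377 in injured and 480, 531 and 842 in intact libraries. Both pairs of groups overlapped, and their means, 600 ± 315 and 633 ± 158 at 1 month and 587 ± 337 and 618 ± 196 at 8 months (SD, n = 3), differed by less than their spread. At 12 months the injured libraries stood at 2545, 937 and 1051. The intact ones stood at 102, 2124 and 3.91, from 488, 1636 and 7 raw counts. Replicates 1 and 3 of the intact 12-month group were thus the 2 lowest of all libraries, the next lowest being 338. Replicate 2, which stood apart in depth and mitochondrial share, was the second highest.

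The direction of the Malat1 difference at 12 months turned on that 1 library. With all libraries the log2 difference was -0.74 ± 1.31 (edgeR adjusted p = 0.8226), and averaged over ages it was -0.30 ± 0.75 (edgeR adjusted p = 0.88). Without intact 12-month replicate 2 it was 4.75 ± 1.04 at 12 months (edgeR adjusted p = 0.01662) and 1.53 averaged over ages (edgeR adjusted p = 0.05148). As a share of all gene counts, CT010467.1 included, Malat1 was 0.170%, 0.0571% and 0.0742% in injured and 0.00367%, 0.0131% and 7.49e-05% in intact 12-month libraries, with no overlap and the injured ones higher. Another feature, from the list of rRNA-like loci, was low in the same libraries. Gm26917 (chromosome 17, 39843013 to 39846341), which ends 12 bp before CT010467.1, ran from 11.2 to 3368 CPM (median 1184). It stood at 18.1 and 11.2 in intact 12-month replicates 1 and 3 and at 73.4 or more in the other 16 libraries, and it was named after its values were seen. The genes closest to Malat1 over the 18 libraries were C78859 (rho 0.858), Snhg11 (0.837), a host gene of small nucleolar RNAs that is known from neurons, and 9330162G02Rik (0.810). Of 14 tested nuclear speckle proteins 0 were called by edgeR (0 at an unadjusted p below 0.05, 0 by DESeq2), with a median log2 difference of 0.02.

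Neat1 was too rare in the low-input libraries to follow. It had 0 counts in 9 libraries and at most 18 in any other, an injured 1-month library. At 12 months it had 6, 12 and 1 counts in injured and 15, 0 and 0 in intact libraries, and these groups overlapped as CPM. The log2 difference of Neat1 averaged over ages was 0.78 ± 1.13 (edgeR adjusted p = 0.757). Under ERCC scaling it was 3.26 (edgeR adjusted p = 0.008189), where 13493 of 14212 genes were called, and per ERCC count the 12-month groups did not overlap, with the injured libraries higher. The ratio of Neat1 to Malat1 within a library could not be compared: with 0 Neat1 counts in 9 libraries it is set there by the pseudocount and the depth of Malat1, so the permutation test chosen for it is void. Of 15 tested paraspeckle proteins 0 were called by edgeR (2 at an unadjusted p below 0.05, 2 by DESeq2), with a median log2 difference of 0.13. Of 19 other long noncoding RNAs 0 were called by edgeR (0 unadjusted, 0 by DESeq2), with a median of -0.23.

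Of the 9 members, 8 passed the filter on low counts and Rmrp did not. In the contrast averaged over ages 4 of the 8 were called, all lower in injured libraries, beside 6.18% of the 14212 genes tested. At 12 months 5 of the 8 were called, all lower, beside 2.99% of genes. With the replicate block 0 of the 8 were called in either contrast. Since the injury contrast was known when 4 of the members were chosen, nothing is read from these counts. At 1 month 0 of the 8 were called beside 0.232% of genes, which is 33 genes, or 5 with the replicate block that pairs the libraries of that age. At 8 months 0 were called beside 0.957%. At both ages 0 of the 8 had an unadjusted p below 0.05 in edgeR. DESeq2 called 0 of those to which it gave an adjusted p, which left out Lars2, Mir6236 and Malat1.

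Age gave no call among the members in the joint test over both conditions (0 of 8 with edgeR, beside 3.75% of genes). By edgeR 5 of the 8 had an unadjusted p below 0.05, beside 3037 of 14212 genes. DESeq2 called 0 of those to which it gave an adjusted p. Leaving out intact 12-month replicate 1, 2 or 3 gave 2, 1 or 2 calls in that age test, beside 672, 1536 or 578 of 14212 genes. CT010467.1 was called each time and Mir6236 without replicate 1 or 3. With no filter 4 members were called, beside 1943 of 28520 genes, and with ERCC scaling 1, beside 7488 of 14212. The joint test of whether the injury difference varied with age called 0 of 14212 genes (0%) with edgeR, although 1161 had an unadjusted p below 0.05 and DESeq2 called 207. Among these genes were 6 of the 8 members by the unadjusted edgeR p, and CT010467.1, Rn7s1 and Rn7s2 by DESeq2. The injury difference was known when CT010467.1, Lars2, Mir6236 and Rn7s2 were chosen, and Rn7s1 is a copy of Rn7s2. Nothing is therefore read from the members in this interaction test. Between 1 and 12 months the log2 difference in intact libraries, older minus younger, was 4.64 ± 0.94 for CT010467.1, 5.93 ± 1.26 for Mir6236, 5.11 ± 1.35 for Lars2 and 3.74 ± 0.71 for Rn7s1. In injured libraries the same differences were -0.21 ± 0.81 for CT010467.1, -0.34 ± 1.03 for Mir6236, -1.41 ± 1.16 for Lars2 and -1.25 ± 0.67 for Rn7s1. Without intact 12-month replicate 2, a setting added after the data were seen, the intact differences were 1.91 ± 0.33 for CT010467.1, 2.21 ± 0.61 for Mir6236, 0.71 ± 0.73 for Lars2 and 3.32 ± 0.69 for Rn7s1. These values of single ages carry no test here. The same intact 12-month libraries serve both the age and the injury differences.

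**Figure D3:**
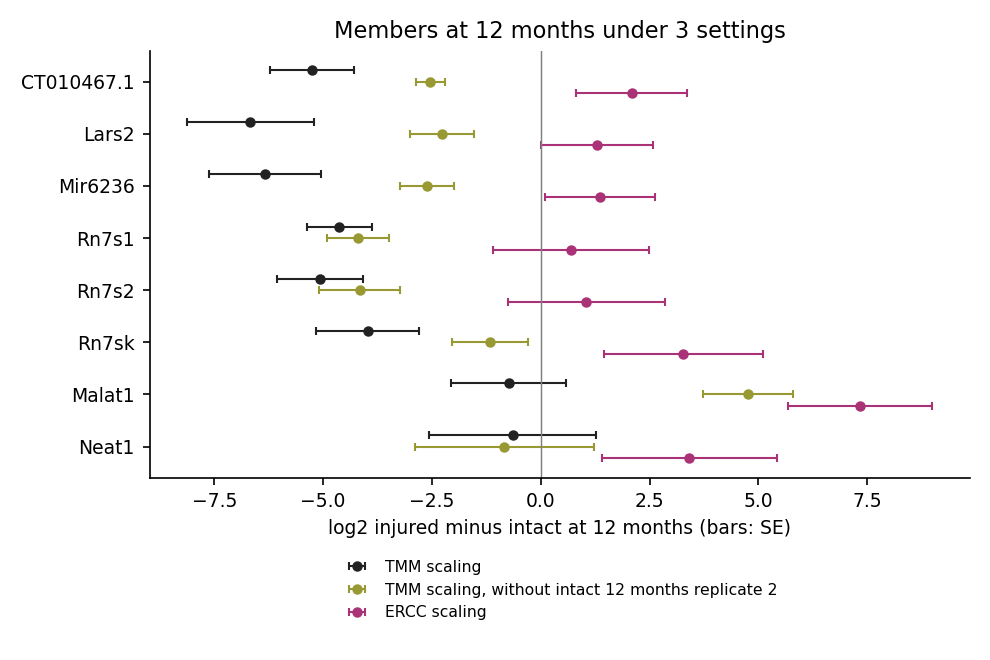
Log2 difference between injured and intact libraries at 12 months (x axis, bars ± SE) for the 8 members tested (y axis), under TMM scaling with all libraries, TMM scaling without intact 12-month replicate 2, and ERCC scaling. Without that library Malat1 moves from -0.74 to 4.75, and under ERCC scaling all 8 lie above 0.

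Scaled to the ERCC spike-in instead of to the other genes, all 8 members with counts had a higher mean over the 9 injured than over the 9 intact libraries. At 8 months alone the means of Lars2 (94.3 in injured, 115.8 in intact) and Mir6236 (0.963 and 1.38) ran the other way. CT010467.1 had 15240, 9146 and 23610 counts per 1000 ERCC counts in injured and 3367, 5224 and 2717 in intact 12-month libraries, without overlap. At 1 month CT010467.1 had 29440, 16540 and 27690 in injured and 3788, 19830 and 13340 in intact libraries, and at 8 months the groups also overlapped. Lars2 at 1 month had 782, 155 and 406 in injured and 90.2, 113 and 132 in intact libraries, with all injured values above the intact ones, whereas its CPM overlapped at that age. Malat1 at 12 months had 77.6, 13.4 and 59.6 in injured and 0.192, 0.730 and 0.00252 in intact libraries.

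The whole table moved with the ERCC scale, so the members are best read against it. Under ERCC scaling the median log2 difference over all genes was 2.90 averaged over ages and 5.36 at 12 months, and of 13493 genes called in the averaged contrast 13492 were higher in injured libraries, against 726 of 878 under TMM. Averaged over ages CT010467.1 was 1.20, Lars2 1.00, Mir6236 0.78 and Rn7s1 1.51, or -1.70, -1.90, -2.11 and -1.38 relative to that median. Malat1, at 3.39, lay 0.50 above it, and at 12 months Malat1, at 7.35, lay 1.98 above it. These distances from the median were not tested. The direction of CT010467.1, Lars2, Mir6236, Rn7s1, Rn7s2 and Rn7sk thus flips between the scalings, and the ERCC shares themselves differed between the conditions. Their place below the median gene is kept, but a scaling moves all genes of a library by the same factor. That place is therefore nearly fixed in advance, and nothing is read from it. The direction of Malat1 flips too, from -0.30 to 3.39 averaged over ages, and that of Neat1 at 12 months, from -0.65 to 3.42.

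**Figure D4:**
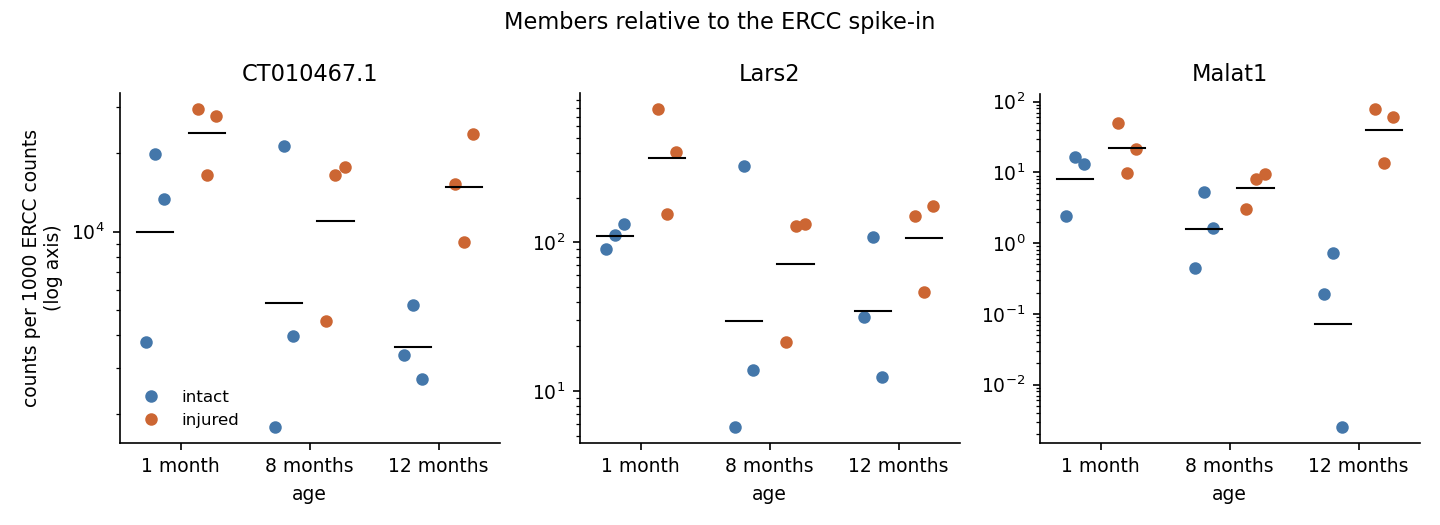
Counts per 1000 ERCC counts (y axis, log scale) of CT010467.1, Lars2 and Malat1 in each low-input library, by age (x axis) and condition. Points are libraries and lines are geometric means (n = 3). At 12 months the injured libraries lie above the intact ones for CT010467.1 and Malat1.

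In single cells each group counts as 1 sample, since no animal is named, and no test between groups was made. One of the 22 injured 1-year cells held no gene counts, which leaves 68 cells. Depth was unequal. Median counts outside CT010467.1 were 291824 in intact and 1033580 in injured cells at 1 month. At 1 year they were 7145018 and 3524089 (empty cell included). The lowest were 5403 and 4945 in intact and injured 1-month cells and 3879158 in intact 1-year cells. No cell with counts was left out for low depth, so ranges, medians and detection counts are not adjusted for it. The median ERCC count of a cell was 1699000 in injured and 745500 in intact cells at 1 month, and 1.5 and 27 at 1 year, so the preparation differed between the ages and cannot be told apart from age. CT010467.1 again took a large share, with a median over cells of 47.6% in intact and 40.9% in injured cells at 1 month, and of 46.96% in intact and 62.8% in injured cells at 1 year. The range was widest in injured 1-year cells, from 14.4% to 99.5%. So the order of the 2 conditions at 1 month was that of the low-input libraries and at 1 year it was the reverse.

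Lars2 and Mir6236 were higher in the pooled intact than in the pooled injured cells at 1 month, and lower in both conditions at 1 year. Lars2 stood at 12360 CPM in intact (exact 95% Poisson interval 12330 to 12400) and at 3512 in injured cells (3496 to 3528) at 1 month. At 1 year it stood at 1055 (1047 to 1064) and 461 (457 to 465). Medians over single cells were 15030 and 3966 at 1 month and 619 and 725 at 1 year, so at 1 year the order by the median was the opposite of that by the pool, where 1 cell gave 44.8% of the intact counts. Mir6236 was 228 in intact (223 to 233) and 82.96 in injured cells (80.5 to 85.5) at 1 month, and 20.1 (18.9 to 21.3) and 37.4 (36.1 to 38.6) at 1 year. These intervals cover counting error only, and 1 cell gave 46.05% of the Mir6236 counts in intact and 43.2% in injured 1-month cells. At 1 year 1 cell gave 25.7% of the Mir6236 counts in intact and 30.6% in injured cells. The medians over 1-year cells, 19.2 in intact and 16.5 in injured cells, ran against the pooled order.

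The 7SL copies were rarer in cells of 1 year than of 1 month. Rn7s1 had 91 counts in intact and 31 in injured cells at 1 month, or 2.50 (2.02 to 3.08) and 0.600 (0.407 to 0.851) CPM, and 3 and 1 counts at 1 year. Rn7s1 had a count in 9 of 18 intact and 13 of 21 injured cells at 1 month. The high level of intact 12-month libraries was thus not seen in the 8 intact 1-year cells, which held 56281619 counts outside CT010467.1. Rn7sk was at 2.04 in intact and 0.658 in injured cells at 1 month, and at 0.942 and 1.10 at 1 year. At 1 month 1 cell gave 67.6% of the Rn7sk counts in intact and 26.5% in injured cells. The medians over 1-month cells, 0 and 0.177, ran in the other order, with Rn7sk counts in 7 of 18 and 11 of 21 cells.

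Malat1 was at 152 (148 to 156) in intact and 169 (166 to 173) in injured cells at 1 month, and at 981 (973 to 989) and 762 (757 to 768) at 1 year. At 1 month 1 cell gave 70.8% of the Malat1 counts in intact and 34.7% in injured cells, and the medians over cells, 76.6 and 25.2, ran in the other order. It was present in 17 of 18 intact and 16 of 21 injured cells at 1 month, and in 8 of 8 and 20 of 21 at 1 year, where median depth was higher. No intact 1-year cell was as low as the lowest 12-month library: the lowest of the 8 was at 30.9. By the labels the nucleus, where Malat1 and Neat1 stay, was removed from the cells. Their levels in cells may therefore not be comparable with those in low-input libraries, and how much nuclear RNA was carried over was not tested. Neat1 was at 5.401 in intact and 4.17 in injured 1-year cells, but 1 cell gave 88.2% and 75.5% of these counts, and at 1 month 1 cell in each condition held all of its 24 and 3 counts. Rmrp was at 0 in all 68 cells.

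**Figure D5:**
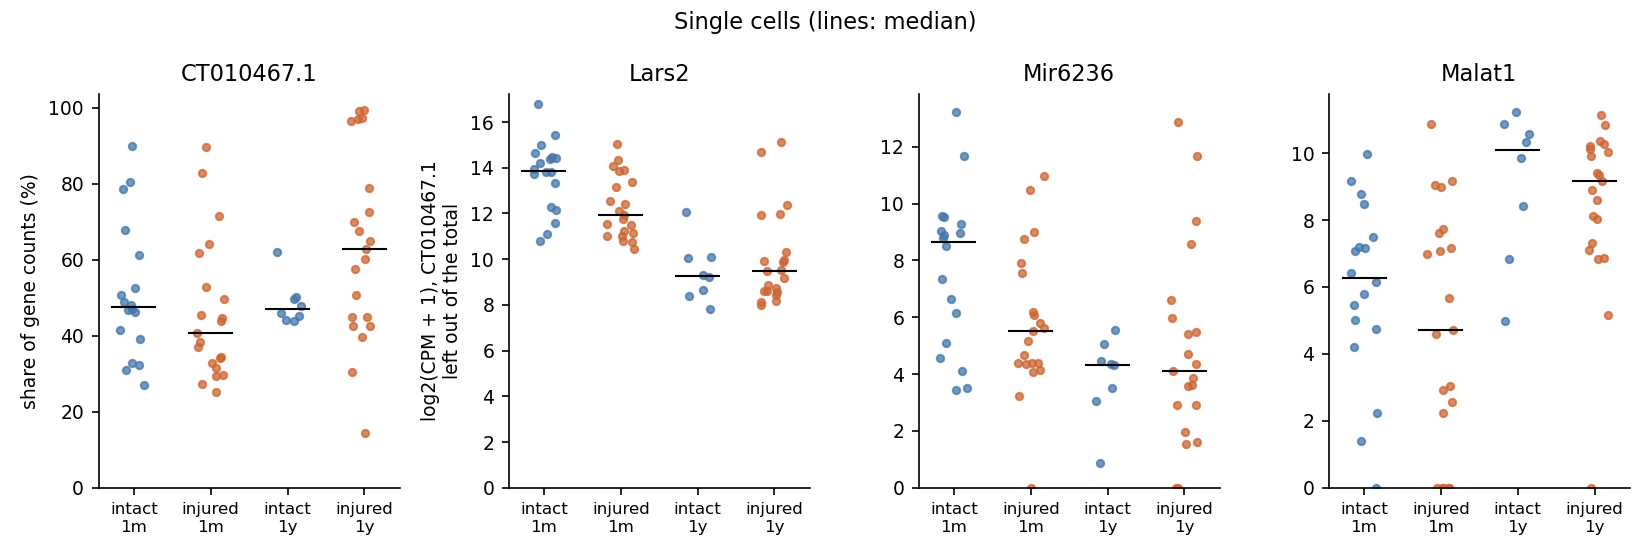
Share of gene counts of CT010467.1 (%) and log2(CPM + 1) of Lars2, Mir6236 and Malat1 (y axes) in single cells, by group (x axis). Points are cells and lines are medians. By the median, Lars2 and Mir6236 are higher at 1 month and Malat1 at 1 year.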

How the data were processed

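The deposited table holds fragment counts per gene for 87 RNA libraries, counted as read pairs with featureCounts 1.5.2, without strand, over exons of GENCODE vM16 with ERCC sequences added, per the file headers. STAR and Trim Galore are named in the submitters' processing notes with no version. The deposited table also gives summed exon lengths in bp (unit: other). The 94 methylation samples are not analysed here. No value column was left unused (0), and 0 pairs of columns were identical.

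In R 4.3.3, edgeR 4.0.16 was run on the 18 low-input libraries: ERCC rows removed, filterByExpr, TMM scaling, robust quasi-likelihood test, 1 mean per group, and Benjamini-Hochberg adjusted p below 0.05 over 14212 genes. The procedure was tested on simulated data. Alternatives were RLE and ERCC scaling, CT010467.1 left out of library sizes, no filter, DESeq2 1.42.0, a replicate block and each library left out. Whether equal replicate numbers pair libraries was checked from correlations of deviations from group means over 2365 genes: 0.109, 0.371 and 0.328 at 1 month, which were taken to pair, and -0.432 to 0.078 at the later ages, which were not.

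Genes were named by these rules: all members, the 3 genes most correlated with each member of which the closest are given, and up to 4 called genes of each list. The members and lists were chosen with earlier results of these data known. Poisson intervals are exact at 95%. Intervals and limits from a count of 0 cover counting error only.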

Additional observations from a re-analysis of the deposited data

Results flagged for a closer look

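Among the 8 intact 1-year cells, 4 results had 1 cell far above the others. For 1 measure with normally distributed values, chance alone does this in about 1 in 20 groups. Here each member with counts was looked at from both ends. The share of CT010467.1 reached 61.98% in 1 cell, where the next was at 50.19%. On the scale of log2(CPM + 1), with CT010467.1 left out of the total, Neat1 reached 5.454 in 1 cell (next 2.022), Rn7s1 0.40 (next 0.167) and Rn7s2 0.40 (next 0). The last 2 rest on 3 and 2 counts in all, found in 2 and 1 of the 8 cells, so the rate of 1 in 20 does not apply to them. Nor does that rate apply to Neat1, which had counts in only 4 of the 8 cells, with 88.2% of them from 1 cell.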

How the results depend on the processing

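The number of genes called depended on the setting. Averaged over ages it was 13493 with ERCC scaling, 1722 with no filter, 1548 with DESeq2 and 329 with a replicate block, against 878. At 1 month it was 50, 276, 123 and 5 in the same order, at 8 months 631, 661, 533 and 29, and at 12 months 13675, 937, 1238 and 58. The age test called 7488, 1943 and 1144 genes with ERCC scaling, no filter and DESeq2. The interaction test called 1 with RLE scaling and 60, 385 and 207 with those 3. With single libraries left out the calls ranged from 558 (without injured 12-month replicate 2) to 1439 (without intact 12-month replicate 2) averaged over ages, from 6 to 53 at 1 month, 26 to 242 at 8 months, 72 to 1054 at 12 months, 200 to 1536 for age and 0 to 20 for the interaction.

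Of the 8 members with counts, 5 had a lower mean in injured libraries as a share of all gene counts, and 0 per ERCC count. ERCC scaling reversed the log2 difference averaged over ages of CT010467.1 (1.20), Lars2 (1.00), Mir6236 (0.78), Rn7s1 (1.51), Rn7s2 (1.51), Rn7sk (2.17) and Malat1 (3.39). At 12 months it reversed CT010467.1 (2.09), Lars2 (1.29), Mir6236 (1.36), Rn7s1 (0.71), Rn7s2 (1.05), Rn7sk (3.28), Malat1 (7.35) and Neat1 (3.42). The replicate block reversed Malat1 (1.23 averaged, 4.09 at 12 months), and with it no member was called. With single libraries left out Malat1 ran from -0.50 to 1.53 averaged and from -1.34 to 4.75 at 12 months, and Neat1 from -0.82 to 2.80 and from -1.38 to 5.40. The cause of these changes was not tested. DESeq2 gave no adjusted p for Lars2, Mir6236 and Malat1.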
